A study of Mus musculus with 2 samples.

Results

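Alpha-beta T cells other than CD8 cells were sought by their RNA among CD45+ cells sorted from MC38 tumours. A cell barcode was selected when it held at least 500 UMIs (unique molecular identifiers, each counting 1 captured RNA molecule), at least 200 genes and at most 10% mitochondrial UMIs, with at least 2 UMIs of the CD3 genes *Cd3d*, *Cd3e* and *Cd3g* together and at least 1 UMI of *Trac*. It also had to hold 0 UMIs of *Foxp3*, *Cd8a*, *Cd8b1*, *Trdc*, *Ncr1* and *Cd79a*. Of 18812 barcodes within the quality limits, 204 met these conditions, 75 in UEIS KI and 129 in UEIS LSL. The barcodes were thus chosen by their UMIs of these genes and by depth, so levels of those genes are given only as a description. MC38 is a mouse colon carcinoma line, grown here as subcutaneous tumours in C57BL/6 mice carrying the names UEIS KI or UEIS LSL, which the labels do not expand. Both groups carried the same tumour and no treatment is named; age, sex and whether mice were pooled are not given in the labels. Each group was 1 library of droplet-based 3' RNA sequencing, so no difference between the groups was tested, and every 95% interval below is exact and covers counting error only, not differences between mice. By its title the study is about a micropeptide, UEIS, that dampens cGAS-STING signalling and type I interferon, and about immunity against tumours.

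Conventional alpha-beta T cells read peptides on MHC molecules through a receptor whose constant chains are encoded by *Trac*, *Trbc1* and *Trbc2* and which signals through the CD3 chains. Those that lack CD8 are mostly helper cells, which carry the coreceptor CD4, show CD40 ligand (*Cd40lg*) to dendritic cells, B cells and macrophages when activated, and direct other immune cells with cytokines. *Foxp3* marks regulatory T cells, which restrain the others. *Trac* lies on chromosome 14 (54220521 to 54224206), *Cd4* on chromosome 6 (124864692 to 124888221), *Cd40lg* on chromosome X (57212143 to 57224042) and *Ifng* on chromosome 10 (118441046 to 118445892), in GENCODE coordinates on GRCm38.

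The selected barcodes fell into a shallow set with little macrophage RNA and a deep set with much of it. C1q, the complement protein of macrophages encoded by *C1qa*, *C1qb* and *C1qc*, reached 10 or more UMIs in 28 of 75 UEIS KI barcodes and 72 of 129 UEIS LSL barcodes. The other 47 and 57 barcodes, called C1q-low below, held a median of 2004 UMIs in UEIS KI (856 to 16607) and 3308 UMIs in UEIS LSL (837 to 52339). The C1q-high ones had medians of 12544 UMIs in UEIS KI and 15878 UMIs in UEIS LSL. Scrublet scores, ranked to call 0.8% of barcodes as doublets per 1000 barcodes, marked 11 of 28 and 23 of 72 C1q-high barcodes, and 0 of 47 and 1 of 57 C1q-low ones, in UEIS KI and UEIS LSL. Of 34 barcode sequences that occurred in both libraries, 0 were selected in both. C1q-low barcodes are therefore the main set here, and values over all selected barcodes stand beside them.

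**Figure D1:**
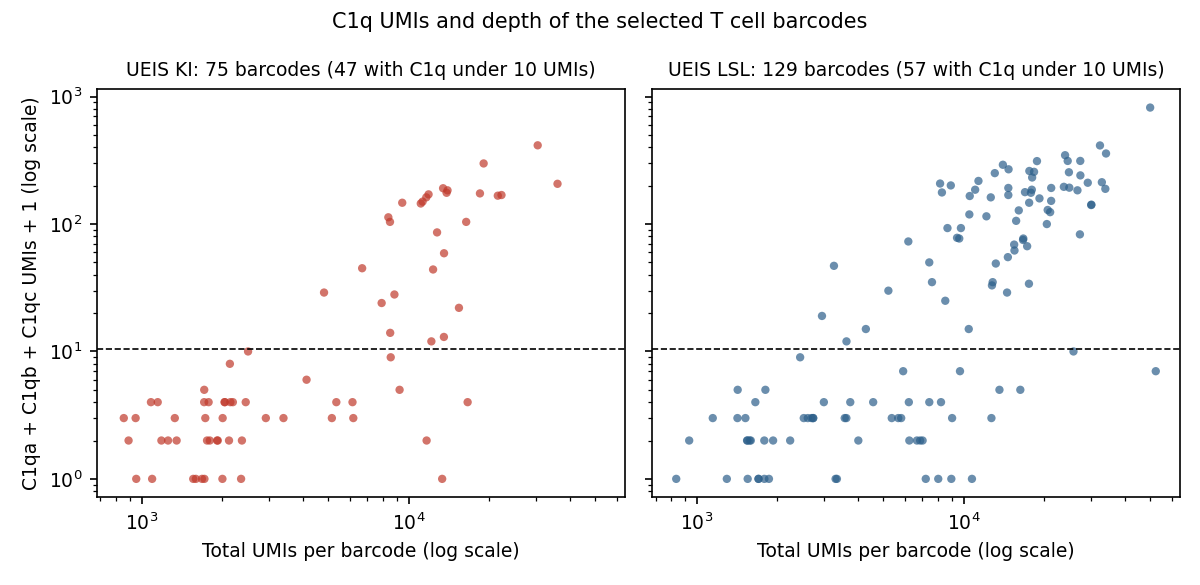
Each point is 1 selected barcode, by its total UMIs (horizontal, log scale) and its summed C1q UMIs plus 1 (vertical, log scale), with UEIS KI on the left and UEIS LSL on the right; the dashed line marks 10 UMIs. The C1q-low barcodes lie mostly at lower depth, with 1 UEIS LSL barcode at 52339 UMIs, and 72 of 129 UEIS LSL barcodes lie above the line against 28 of 75 in UEIS KI.

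Membership rested on few UMIs. Exactly 2 CD3 UMIs carried 21 of 75 UEIS KI and 19 of 129 UEIS LSL barcodes across the limit, and exactly 1 *Trac* UMI did so in 37 and 40. Just outside, 6 UEIS KI and 16 UEIS LSL barcodes met all conditions but CD3, with 1 CD3 UMI, and 37 and 45 met all but *Trac*, with 0 UMIs. Another 60 and 152 failed only on the excluded genes, 21 and 38 of them by a single UMI in all. For C1q, 4 UEIS KI and 5 UEIS LSL barcodes had 5 to 9 UMIs, and 3 and 4 had 10 to 19.

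Selected barcodes were scarcer in UEIS KI, and this lay mainly in the C1q-high set. They made up 0.794% of kept barcodes in UEIS KI (95% interval 0.625% to 0.995%) and 1.38% in UEIS LSL (1.15% to 1.63%), a log2 ratio of -0.79 (-1.22 to -0.37). C1q-low barcodes made up 0.498% in UEIS KI and 0.608% in UEIS LSL, with a log2 ratio of -0.29 whose interval (-0.88 to 0.29) spans 0. C1q-high barcodes made up 0.297% in UEIS KI and 0.768% in UEIS LSL (log2 ratio -1.37, -2.06 to -0.73). All barcodes with at least 2 CD3 UMIs were also scarcer, at 2.48% in UEIS KI and 4.03% in UEIS LSL, and the selected ones were 32.1% of these in UEIS KI and 34.1% in UEIS LSL. With barcodes of at most 8000 UMIs alone, a limit chosen after the data were seen, the log2 ratio of the selected share was -0.27 (-0.88 to 0.32). Fewer T cells and fewer captured RNA molecules per T cell cannot be told apart here. The mean of CD3, *Trac*, *Trbc1* and *Trbc2* UMIs per C1q-low barcode was 8.83 in UEIS KI and 14.7 in UEIS LSL.

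The helper cell markers were seen in a minority of the selected barcodes. *Cd4* had a UMI in 9 of 47 C1q-low barcodes of UEIS KI (19.1%, 9.15% to 33.3%) and 15 of 57 of UEIS LSL (26.3%, 15.5% to 39.7%), never more than 3 UMIs in a UEIS KI barcode and 8 in a UEIS LSL barcode. Its summed level was 78.9 CPM (UMIs of the gene scaled to the summed UMIs of the set) in UEIS KI and 80.4 CPM in UEIS LSL, so the shares and the levels gave no order. When each barcode was thinned to 500 UMIs, 5.48% and 4.54% of C1q-low barcodes of UEIS KI and UEIS LSL would keep a *Cd4* UMI. Barcodes with at least 10 C1q UMIs and 0 UMIs of the CD3 genes, *Trac*, *Trbc1*, *Trbc2*, *Trdc*, *Cd79a* and *Ncr1*, called background barcodes below, held *Cd4* in 0.876% in UEIS KI and 1.38% in UEIS LSL at median depths of 10303 and 9547.5 UMIs. The low *Cd4* share thus lies above that of the background barcodes in both libraries. Those barcodes are mostly macrophage by their markers, so their share does not measure free RNA alone, and the part of free RNA was not tested.

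*Cd40lg* had a higher level in UEIS KI. It had 18 UMIs in 11 of 47 C1q-low barcodes of UEIS KI (23.4%, 12.3% to 38.0%) and 14 UMIs in 7 of 57 of UEIS LSL (12.3%, 5.08% to 23.7%), or 118 and 43.3 CPM. The log2 ratio of these levels was 1.45 (0.36 to 2.57), while that of the shares was 0.93 with an interval that spans 0 (-0.57 to 2.54). Thinned to 500 UMIs, 7.58% and 2.44% of the barcodes of UEIS KI and UEIS LSL would keep a UMI. Over all selected barcodes *Cd40lg* was in 18 of 75 in UEIS KI and 20 of 129 in UEIS LSL, at 49.4 and 22.5 CPM. *Cd40lg* was rare in background barcodes, which held 5 UMIs in 6051 barcodes of UEIS KI and 0 in 5600 of UEIS LSL, where 0 allows up to 3 barcodes with a UMI. Barcodes with CD3 and *Trdc*, the constant chain of the gamma-delta receptor, held 0 UMIs of *Cd40lg* and 0 of *Cd4* in the C1q-low set, over 36 barcodes of UEIS KI and 18 of UEIS LSL.

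**Figure D2:**
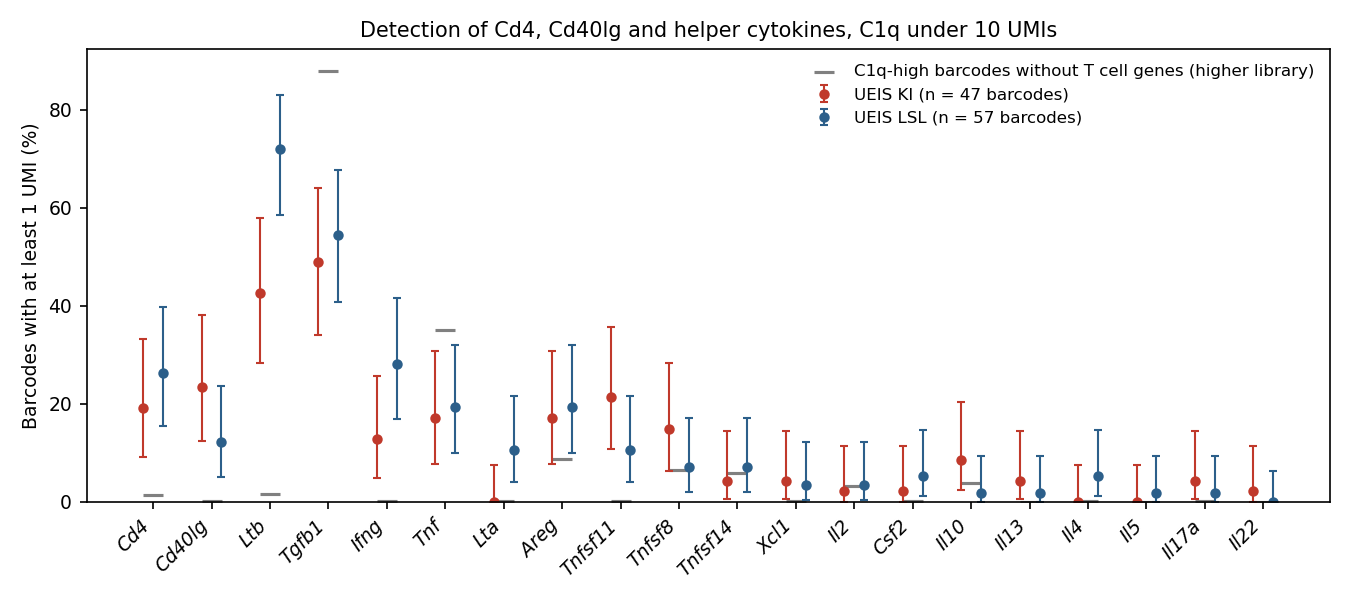
Share of C1q-low selected barcodes with at least 1 UMI of each gene (vertical, %), in UEIS KI (left point of each pair, n = 47) and UEIS LSL (right point, n = 57); bars are exact 95% binomial intervals and grey dashes the share in background barcodes of the library where it is higher. *Cd40lg* stands at 23.4% in UEIS KI and 12.3% in UEIS LSL, *Ifng* at 12.8% and 28.1%, and most interleukins are near 0.

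The name of conventional helper T cells was only partly borne out. Neither *Cd4* nor *Cd40lg* was detected in 29 of 47 C1q-low barcodes of UEIS KI (61.7%) and 39 of 57 of UEIS LSL (68.4%), and both were detected in 2 and 4. A beta-chain constant gene was seen in 28 of 47 barcodes of UEIS KI and 44 of 57 of UEIS LSL. Receptor variable genes were almost unseen, with 3 UMIs of *Trav* genes in UEIS KI and 1 in UEIS LSL, so clones cannot be followed. Gamma constant or variable genes appeared in 2 of 47 barcodes of UEIS KI and 9 of 57 of UEIS LSL. *Trgc2*, named after its values were seen, was in 1 and 8 of these barcodes, and it was also in 2 of 12 UEIS KI and 11 of 23 UEIS LSL barcodes that carried CD8 genes. Innate-like T cell markers were detected in 2 of 5 in each C1q-low set, with 3 UMIs in 3 barcodes of UEIS KI, where *Zbtb16*, *Trav11* and *Trav11d* were at 0, and 3 UMIs in 2 barcodes of UEIS LSL, where *Zbtb16*, *Trav11d* and *Trav1* were at 0.

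Genes of regulatory T cells ran through the selection although *Foxp3* had been required at 0 UMIs. *Ikzf2*, which encodes the transcription factor Helios, was in 13 of 47 C1q-low barcodes of UEIS KI and 24 of 57 of UEIS LSL, and *Ctla4*, an inhibitory receptor of regulatory and activated T cells, in 20 and 29. One or the other was in 26 of 47 barcodes of UEIS KI and 37 of 57 of UEIS LSL, and both together in 7 and 16. The lower *Ikzf2* share of UEIS KI went with a shallower depth: its level was 230 CPM in UEIS KI and 192 CPM in UEIS LSL, and thinned shares were 13.7% and 12.9%. In a split chosen after the values were seen, barcodes with *Ikzf2* held *Il2ra*, the interleukin 2 receptor alpha chain, in 5 of 13 cases in UEIS KI and 10 of 24 in UEIS LSL, against 1 of 34 and 6 of 33 without *Ikzf2*. *Foxp3* itself was sparse where it was found: 17 of 33 UEIS KI and 33 of 89 UEIS LSL barcodes with *Foxp3* held exactly 1 UMI of it. Only 26.6% of C1q-low *Foxp3* barcodes of UEIS KI and 24.2% of UEIS LSL would keep a *Foxp3* UMI at 500 UMIs, so 0 UMIs in a barcode does not show that the gene was off.

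**Figure D3:**
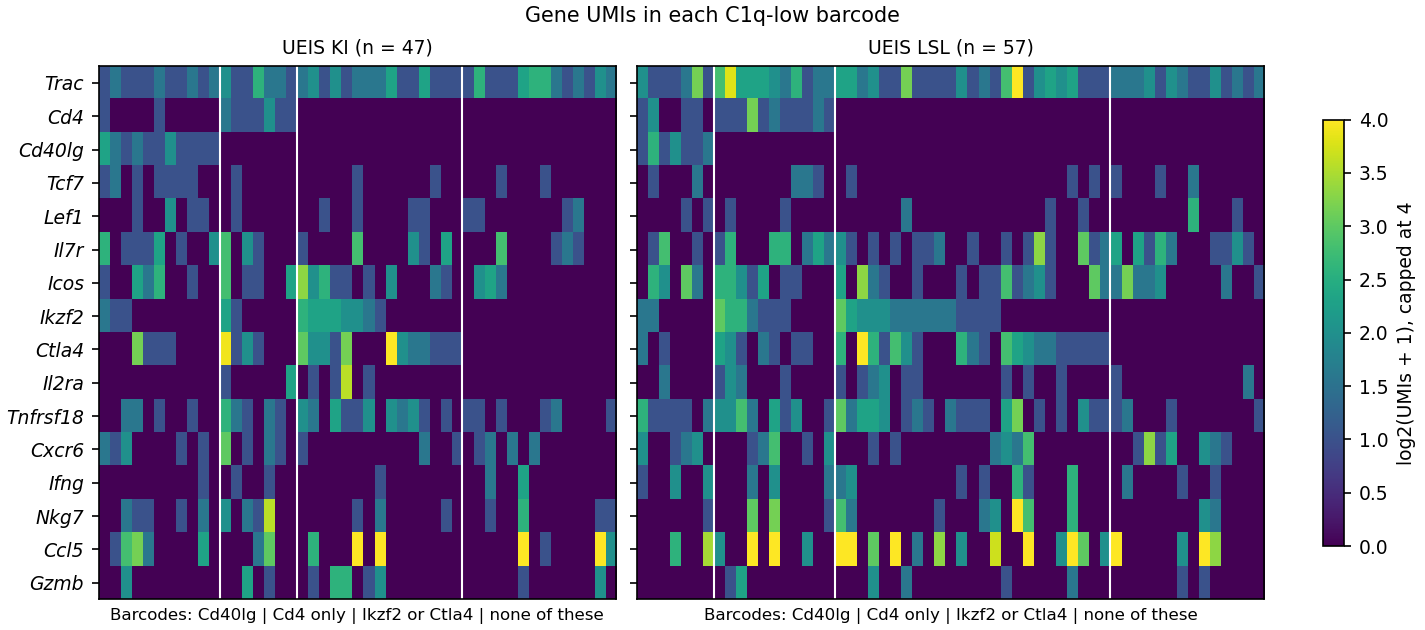
Each column is 1 C1q-low selected barcode, UEIS KI on the left (n = 47) and UEIS LSL on the right (n = 57), and each row a gene; colour is log2(UMIs + 1), capped at 4. White lines separate barcodes with *Cd40lg*, with *Cd4* only, with *Ikzf2* or *Ctla4* only, and with none of the 4; *Ikzf2* was found in 13 UEIS KI and 24 UEIS LSL barcodes, and the last block holds 14 barcodes of each library.

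The selection was set beside C1q-low barcodes with CD3, *Trac* and *Foxp3* (16 in UEIS KI and 26 in UEIS LSL), as a description, since the same cells supplied all the genes. Over both libraries, 11.6% of 5303 measured genes were at least 1.5-fold higher in the selected barcodes and 13.7% at least 1.5-fold lower. *Cd40lg* was at 118 CPM in UEIS KI and 43.3 CPM in UEIS LSL in the selected barcodes, and had 0 UMIs in the *Foxp3* barcodes of both. *Tnfsf8*, the CD30 ligand, had 15 UMIs in UEIS KI and 11 in UEIS LSL among selected barcodes and 0 in the *Foxp3* barcodes of both, and *Klrk1*, an activating receptor of cytotoxic and memory T cells, likewise had 0 UMIs there. *Bcl2*, which protects lymphocytes from cell death, was 29.3-fold higher in the selected barcodes (95% interval 7.89 to 245), on 95 against 2 UMIs over both libraries. *Cxcr6*, a chemokine receptor of tissue-resident T cells, was 4.93-fold higher (2.63 to 10.2). The same *Foxp3* barcodes held *Ikzf2* in 13 of 16 cases in UEIS KI and 24 of 26 in UEIS LSL, against 13 of 47 and 24 of 57 selected barcodes. Both sets thus carried that gene, the selected one in a lower share. Median depths also differed, at 3291.5 and 4739 UMIs in *Foxp3* barcodes and 2004 and 3308 UMIs in selected ones of UEIS KI and UEIS LSL.

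Among genes that were lower, *Klrg1*, a receptor of highly differentiated T cells, stood at 0.180 times its level in *Foxp3* barcodes (0.102 to 0.304), and *Tnfrsf4*, the costimulatory receptor OX40, at 0.361 times (0.289 to 0.449). *Gzmb*, which encodes granzyme B, had 42 UMIs in selected and 142 in *Foxp3* barcodes, but 90 of the UMIs in *Foxp3* barcodes came from 1 UEIS KI barcode. The interferon-induced genes *Rsad2* and *Ifit3* were at 0.0649 and 0.123 times. The same ranking held *Ccn1*, with 20 UMIs in selected and 85 in *Foxp3* barcodes, and *Mmp13*, with 33 and 85. The deepest C1q-low *Foxp3* barcode held 33524 UMIs in UEIS KI and 40274 UMIs in UEIS LSL, and the part of such deep barcodes in these values was not tested.

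Beside C1q-low barcodes with CD8 genes (12 in UEIS KI and 23 in UEIS LSL), 18.9% of 4809 measured genes were at least 1.5-fold higher in the selected barcodes and 8.82% at least 1.5-fold lower. *Cd4* was 4.41-fold higher (1.59 to 17.01), *Icos*, a costimulatory receptor of helper and regulatory T cells, 3.36-fold (2.14 to 5.51), *Ikzf2* 3.46-fold (1.93 to 6.74) and *Areg*, an epidermal growth factor receptor ligand, 27.9-fold (7.55 to 233). *Izumo1r*, a folate receptor family member of regulatory T cells, had 33 UMIs in selected and 0 in CD8 barcodes over both libraries, which makes it 5.11-fold higher with 0 set to 3 UMIs, with an exact lower bound of 3.93. Genes of killing were lower: the perforin gene *Prf1* was at 0.0982 times its CD8 level (0.0462 to 0.191) and *Nkg7*, a granule protein, at 0.166 times (0.131 to 0.210). *Ifng* stood at 65.8 CPM in selected and 179 CPM in CD8 barcodes of UEIS KI, and at 111 and 2397 CPM in UEIS LSL, where 290 of 382 CD8 UMIs came from 1 barcode. Genes were named here only if they differed at least 1.5-fold in the same direction in each library. Agreement between the libraries was thus a condition of naming, not a result. In UEIS KI, *Cd4* and *Izumo1r* met it on 12 UMIs each in selected and 0 in CD8 barcodes, with 0 set to 3 UMIs.

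**Figure D4:**
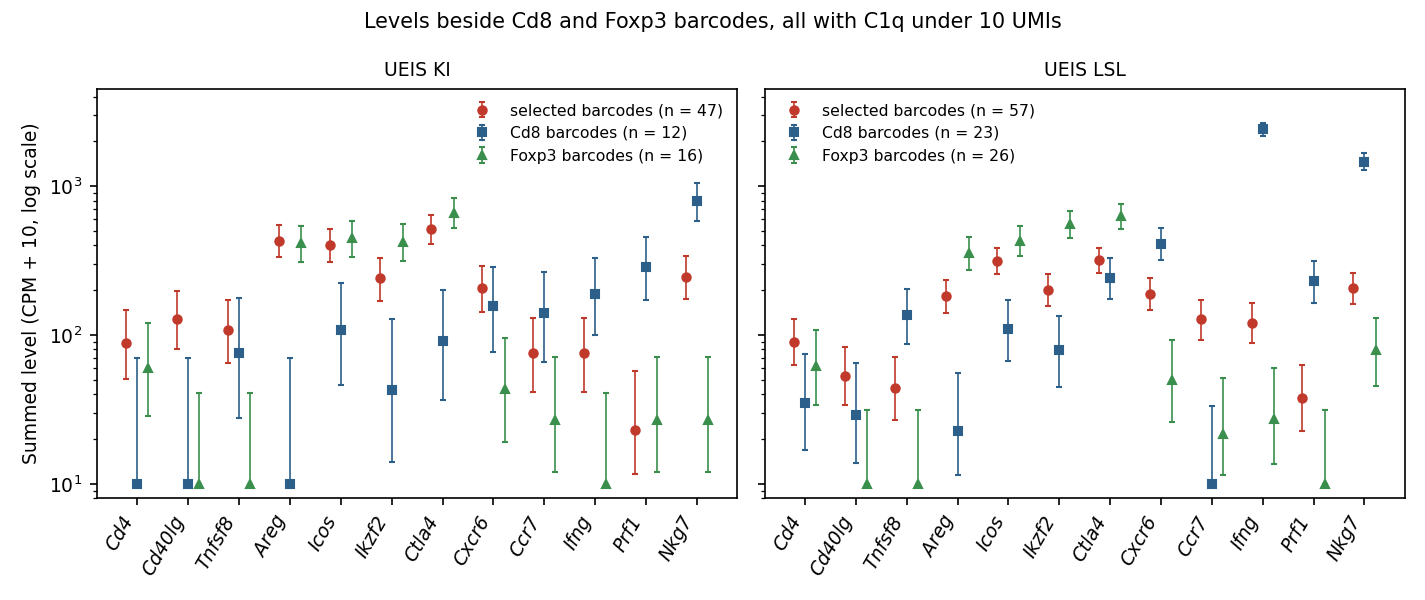
Summed level of 12 genes (vertical, CPM plus 10, log scale) in selected, *Cd8* and *Foxp3* barcodes, all C1q-low, with UEIS KI on the left and UEIS LSL on the right; bars are exact 95% Poisson intervals and n is barcodes. *Cd40lg* has 0 UMIs in the *Foxp3* barcodes of both libraries and in the *Cd8* barcodes of UEIS KI, and *Nkg7* is highest in the *Cd8* barcodes.

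Interferon-gamma, which activates macrophages, was found in fewer barcodes of UEIS KI, most clearly over all selected barcodes. *Ifng* had 10 UMIs in 6 of 47 C1q-low barcodes of UEIS KI, at most 4 in 1 barcode, and 36 UMIs in 16 of 57 of UEIS LSL, at most 5. These are 65.8 CPM (31.5 to 121) in UEIS KI and 111 CPM (77.9 to 154) in UEIS LSL, a log2 ratio of -0.76 whose interval (-1.93 to 0.28) spans 0. Thinned shares were 4.16% in UEIS KI and 7.53% in UEIS LSL. Over all selected barcodes the same 10 UMIs of UEIS KI stood against 85 UMIs in 28 of 129 UEIS LSL barcodes, a log2 ratio of -1.58, and no C1q-high barcode of UEIS KI held any (0 of 28), against 12 of 72 in UEIS LSL. Background barcodes held *Ifng* in 0.0496% in UEIS KI and 0.196% in UEIS LSL.

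Most barcodes with *Ifng* also held the cytotoxic gene *Nkg7*. *Nkg7* was found in 5 of 6 barcodes with *Ifng* and 11 of 41 without it in UEIS KI, and in 11 of 16 with it and 3 of 41 without it in UEIS LSL. *Gzmb* was in 3 of 6 barcodes with *Ifng* and 7 of 41 without it in UEIS KI, but in 2 of 16 and 6 of 41 in UEIS LSL. At least 1 of *Gzmb*, *Prf1* and *Nkg7* accompanied *Ifng* in 5 of 6 barcodes of UEIS KI and 12 of 16 of UEIS LSL. Over all C1q-low barcodes, with or without *Ifng*, at least 1 of them was in 20 of 47 and 20 of 57. *Cd4* or *Cd40lg* accompanied *Ifng* in 3 barcodes of UEIS KI and 6 of UEIS LSL. *Ccl5*, a chemokine of effector T cells, stood at 4390 CPM in barcodes with *Ifng* and 669 CPM in those without it in UEIS KI, and at 2035 and 503 CPM in UEIS LSL. Median depths with and without *Ifng* and the number of barcodes differ, and these pairings were chosen after the values were seen.

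Of the tumour necrosis factor family ligands, *Ltb*, lymphotoxin beta, which organises lymphoid tissue, had 50 UMIs in 20 of 47 C1q-low barcodes of UEIS KI and 112 UMIs in 41 of 57 of UEIS LSL, yet its level was 329 and 346 CPM. *Tnfsf11*, the RANK ligand that acts on dendritic cells and osteoclast precursors, had 17 UMIs in 10 barcodes of UEIS KI and 13 UMIs in 6 of UEIS LSL, or 112 and 40.2 CPM (log2 ratio 1.48, 0.35 to 2.64). It held its direction under all 15 alternatives run on it, from 0.44 to 2.51. *Tnfsf8* was at 98.7 CPM in UEIS KI and 34.0 CPM in UEIS LSL, but the log2 ratio of 1.54 became -0.059 with barcodes of at most 8000 UMIs. *Lta*, lymphotoxin alpha, had 0 UMIs in UEIS KI and 14 UMIs in 6 barcodes of UEIS LSL, a log2 ratio of -1.13 with 0 set to 3 UMIs and an exact upper bound of -0.64. *Tnf* at 72.4 CPM in UEIS KI and 49.5 CPM in UEIS LSL, and *Tgfb1* at 289 and 269 CPM, were near their background levels of 55.9 and 67.0 CPM, and 295 and 319 CPM.

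The interleukins of type 2 and type 17 responses came from at most 4 barcodes a library. *Il13* had 26 UMIs in 2 barcodes of UEIS KI, 17 of them in 1, and 3 UMIs in 1 barcode of UEIS LSL. *Il17a* had 18 UMIs in 2 barcodes of UEIS KI, 15 of them in 1, and 11 UMIs in 1 barcode of UEIS LSL. *Il10*, which restrains immune responses, had 22 UMIs in 4 barcodes of UEIS KI and 4 UMIs in 1 of UEIS LSL. *Areg* had 64 UMIs in 8 barcodes of UEIS KI, at most 21 in 1, and 56 UMIs in 11 of UEIS LSL, at most 20 in 1, or 421 and 173 CPM. Its log2 ratio of 1.28 (0.74 to 1.83) was -0.54 with C1q under 3 UMIs. *Il22* had 7 UMIs in 1 barcode of UEIS KI and 0 in UEIS LSL, *Il4* 0 in UEIS KI and 3 in UEIS LSL, and *Il5* 0 and 2. *Il2* had 1 and 2 UMIs, *Csf2* 1 and 3, *Xcl1* 4 and 10, and *Tnfsf14* 2 and 6, while *Il3*, *Il9*, *Il17f* and *Il21* had 0 in both. With so few barcodes the interleukin levels describe single cells rather than groups. Markers of group 2 innate lymphoid cells, another source of *Il13* and *Areg*, were detected in 5 of 9 in UEIS KI, with *Il1rl1*, *Il5*, *Calca* and *Hs3st1* at 0. In UEIS LSL 8 of 9 were detected, with *Hs3st1* at 0, and the sums were 862 and 526 CPM. These markers include *Il13* and *Areg* themselves, at 171 and 421 CPM in UEIS KI and 9.27 and 173 CPM in UEIS LSL. The sums are thus partly the cytokines in question, and the part of such cells in the cytokine levels was not tested.

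Set against each other over all genes, C1q-low barcodes of UEIS KI and UEIS LSL had 3694 genes with at least 20 UMIs, of which 544 were at least 1.5-fold higher in UEIS KI (14.7%) and 706 at least 1.5-fold lower (19.1%). T cell receptor and CD3 genes were close, with a median log2 ratio of 0.14 and 1 of 7 higher, while the median over all genes was 0.00. Of 16 proximal T cell signalling genes, 9 were higher and 1 lower in UEIS KI, with a median of 0.72. *Cd28*, the main costimulatory receptor, was at 507 CPM in UEIS KI and 229 CPM in UEIS LSL (log2 ratio 1.15, 0.67 to 1.63), and *Lat*, the adaptor that relays receptor signals, at 322 and 207 CPM (0.64, 0.08 to 1.19). The signalling median was 0.23 with barcodes of at most 8000 UMIs and 0.40 when scaled to the summed UMIs of the receptor, CD3 and signalling genes, a scaling that moved the median of all genes to -0.32. Per barcode instead of per UMI, the median of all genes was -0.81, and smaller positive ratios, the signalling median among them (-0.092), turned negative.

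Beside each list here, 14.7% of all measured genes were higher and 19.1% lower in UEIS KI. Of the helper lists, the lineage genes had 3 of 5 higher and 0 lower in UEIS KI (*Cd40lg*, *Tcf7* and *Lef1*, median 0.88). Of 10 measured cytokines 6 were higher and 1, *Ifng*, lower, with a median of 1.38 that was 0.41 with barcodes of at most 8000 UMIs. Th1 genes had 2 of 9 higher and 1 lower (median 0.26), Th2 genes 1 of 2 higher, *Il13* (2.35), Th17 genes 1 of 5 higher, *Il17a* (0.30), and Tfh genes 0 of 2 either way (-0.064). Exhaustion genes had 2 of 4 higher and 1 lower (0.11), and homing genes 1 of 9 higher, *Ccr2*, and 0 lower (0.19).

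Several genes of naive and resting T cells were higher in UEIS KI. Of 9 measured naive and memory genes, 5 were at least 1.5-fold higher and 2 lower, with a median of 0.73. Of all measured genes 14.7% were higher and 19.1% lower. *Klf2*, a transcription factor of recirculating T cells, was at 2467 CPM in UEIS KI and 1487 CPM in UEIS LSL (log2 ratio 0.73, 0.53 to 0.93), against 1208 and 1295 CPM in background barcodes. *Lef1*, a transcription factor of naive T cells, had 16 UMIs in 13 barcodes of UEIS KI and 14 UMIs in 9 of UEIS LSL, or 105 and 43.3 CPM (1.28, 0.15 to 2.43). *S1pr1*, the receptor that lets T cells leave tissue, was in 13 of 47 barcodes of UEIS KI and 5 of 57 of UEIS LSL, at 92.1 and 24.7 CPM; it was named after its values were seen. The reverse held for *Igfbp4*, at 59.2 CPM in UEIS KI and 198 CPM in UEIS LSL, and background barcodes had 159 CPM in UEIS KI and 184 CPM in UEIS LSL. Of its 64 UMIs in UEIS LSL 41 lay in 1 barcode, and the log2 ratio of -1.74 was -0.059 with barcodes of at most 8000 UMIs.

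Of 14 activation genes, 5 were higher and 3 lower in UEIS KI (median 0.37), and of 6 cytotoxic genes 4 were higher and 0 lower (median 0.67). Beside these and the lists below, 14.7% of all measured genes were higher and 19.1% lower. *Nr4a1*, an immediate target of receptor signals, was at 921 CPM in UEIS KI and 476 CPM in UEIS LSL (log2 ratio 0.95, 0.61 to 1.29), and *Rgs1* at 803 and 1274 CPM (-0.67, -0.97 to -0.37). *Gzmb* was at 178 CPM in UEIS KI and 46.4 CPM in UEIS LSL (1.94, 0.98 to 2.95), though over all selected barcodes its log2 ratio was 0.58. *Klrd1*, a receptor chain of cytotoxic cells, had 33 UMIs in UEIS KI, 22 of them in 1 barcode, and 14 in UEIS LSL. *Lag3*, an inhibitory receptor, went the other way, with 3 UMIs in 2 barcodes of UEIS KI and 29 in 6 of UEIS LSL, 20 of those in 1 barcode (-2.18, -4.54 to -0.49). Regulatory T cell genes (3 higher, 0 lower of 8) and T cell transcription factors (6 higher, 0 lower of 13) had medians of 0.33 (-0.15 with at most 8000 UMIs) and 0.50, and cell cycle genes (1 higher, 5 lower of 13) and glycolysis genes (1 higher, 5 lower of 13) medians of -0.50 and -0.45.

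By the ranking of single genes, UEIS KI stood highest in *Il13*, *Il10*, *Il1r2*, *Klrd1*, *Trib2*, *Dnajb1*, *Ramp3*, *Gzmb*, *Grap2*, *Ifitm1*, *Bcl2* and *Areg*. The spread over barcodes differed among these. *Bcl2* had 52 UMIs in 19 of 47 barcodes of UEIS KI and 43 UMIs in 20 of 57 of UEIS LSL, or 342 and 133 CPM (log2 ratio 1.36, 0.75 to 1.98), and *Grap2*, an adaptor of the receptor pathway, 21 UMIs in 13 and 11 UMIs in 10 (2.02, 0.90 to 3.22). *Trib2*, a pseudokinase, had 16 UMIs in 10 barcodes of UEIS KI and 5 UMIs in 5 of UEIS LSL (2.77, 1.25 to 4.57), and *Ramp3*, a partner of calcitonin family receptors, 22 UMIs in 11 and 11 UMIs in 7 (2.09, 0.98 to 3.28). *Dnajb1*, a heat shock co-chaperone, was at 842 CPM in UEIS KI and 303 CPM in UEIS LSL (1.47, 1.08 to 1.87). *Bcl2*, *Grap2*, *Trib2*, *Ramp3*, *Dnajb1* and *Cd40lg* were higher in UEIS KI in each of the 15 alternatives run on them. So were *Il13*, *Il10*, *Klrd1*, *Gzmb* and *Ifitm1*, so a kept direction does not set genes of this ranking apart. A single UEIS KI barcode held 47 of 72 *Ifitm1* UMIs, and a single one held 33 of 128 *Dnajb1* UMIs. With barcodes of at most 8000 UMIs the log2 ratio of *Il1r2* turned to -0.13 and that of *Areg* fell to 0.26.

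**Figure D5:**
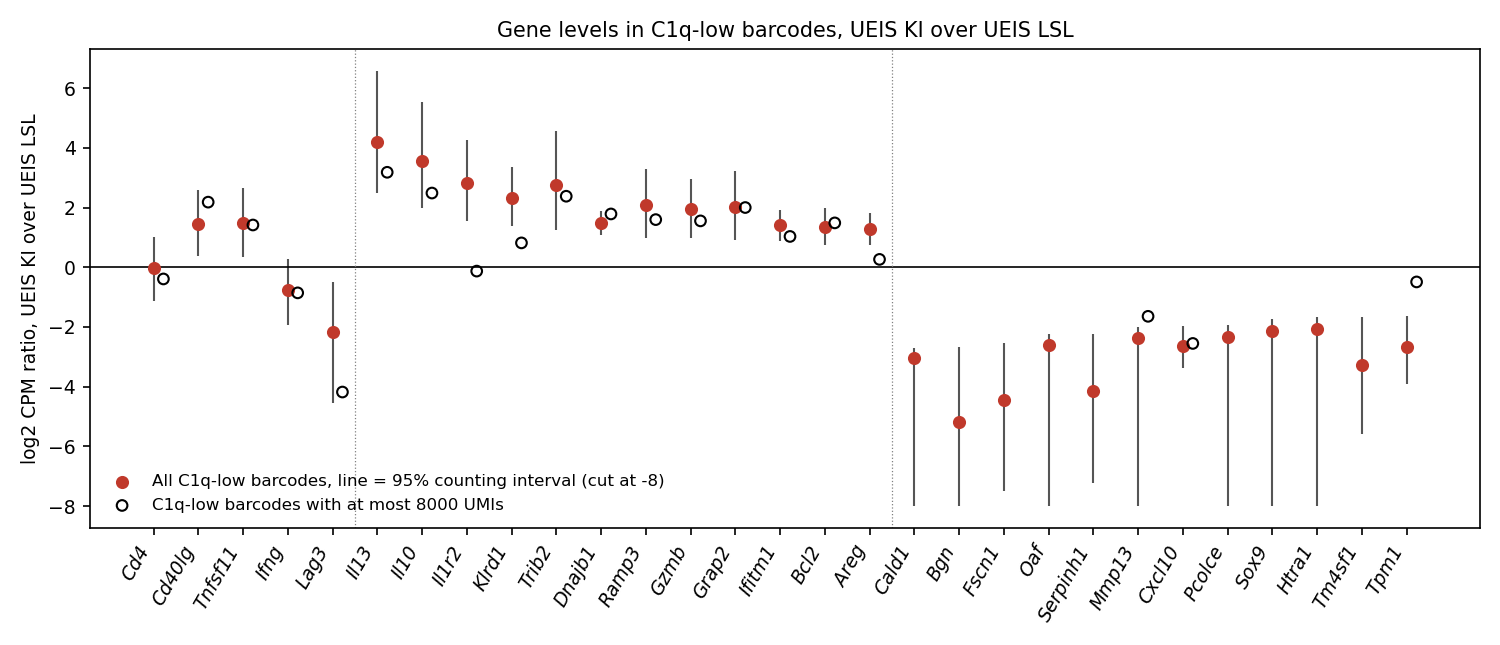
Log2 ratio of the CPM in C1q-low barcodes, UEIS KI over UEIS LSL (vertical), for 5 chosen genes and the 12 highest and 12 lowest genes of the ranking, which dotted lines separate; lines are exact 95% counting intervals, cut at -8, and open circles the ratio with barcodes of at most 8000 UMIs, drawn only where enough UMIs were left. The circle is near the point for *Bcl2*, *Grap2* and *Cxcl10* and far from it for *Il1r2* (2.81 and -0.13) and *Tpm1* (-2.68 and -0.49), and 9 of the 12 lowest genes have none.

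The genes lowest in UEIS KI were *Cald1*, *Bgn*, *Fscn1*, *Oaf*, *Serpinh1*, *Mmp13*, *Cxcl10*, *Pcolce*, *Sox9*, *Htra1*, *Tm4sf1* and *Tpm1*, most of which are genes of stromal or contractile cells. A few deep UEIS LSL barcodes carried them: 45 of 53 *Cald1*, 59 of 75 *Serpinh1* and 86 of 109 *Tpm1* UMIs lay in 1 barcode each. The deepest C1q-low barcode of UEIS LSL, with 52339 UMIs, held 16.2% of all UMIs of its set and 61 UMIs of fibroblast markers, and the next, with 25740 UMIs, held 34. Fibroblast markers summed to 7 UMIs in UEIS KI (3 of 5 detected, with *Dcn* and *Sparc* at 0) and 112 UMIs in UEIS LSL (4 of 5, with *Dcn* at 0), or 46.0 and 346 CPM. All 12 macrophage markers were detected in both, at 4348 CPM in UEIS KI and 7553 CPM in UEIS LSL, against 25666 and 27683 CPM in background barcodes. These markers include *C1qa*, *C1qb* and *C1qc*, by which both sets were chosen, so part of the gap to background barcodes was fixed by the selection. Dendritic cell markers, 4 of 8 detected in each, summed to 6887 CPM in UEIS KI and 3258 CPM in UEIS LSL, with *Zbtb46*, *Xcr1* and *Clec9a* at 0 in both. Of the 1047 UMIs in UEIS KI, 446, 147 and 68 were *Cd74* UMIs of its 3 deepest barcodes, so this sum rests largely on *Cd74* of few barcodes. The 3 deepest UEIS LSL barcodes held 8, 4 and 1 *Cd74* UMIs. *Fscn1*, of the same markers, went the other way, with 2 UMIs in UEIS KI and 92 in UEIS LSL, 65 of those in 1 barcode. The 4 epithelial markers were at 0 in both. With barcodes of at most 8000 UMIs the log2 ratio of *Tpm1* was -0.49 and that of *Mmp13* -1.64, and 9 of these 12 genes, *Bgn*, *Fscn1* and *Serpinh1* among them, had too few UMIs left for a ratio.

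*Cxcl10*, a chemokine induced by interferons, was the exception among them, with 19 UMIs in 12 barcodes of UEIS KI and 250 UMIs in 23 of UEIS LSL. A single UEIS LSL barcode gave 107 of the 250, and the log2 ratio of -2.63 (-3.38 to -1.96) was -2.55 with barcodes of at most 8000 UMIs. Over all selected barcodes, with 110 UMIs in UEIS KI and 471 UMIs in UEIS LSL, the *Cxcl10* ratio was -0.59, and it ran from -3.44 to -0.49 over 15 alternatives. Background barcodes, which are mostly macrophage by their markers, had it at 106 CPM in UEIS KI and 236 CPM in UEIS LSL, and the part of their RNA in the value was not tested.

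Most interferon-induced genes were lower in UEIS KI in background barcodes, and the values of C1q-low barcodes depended on the list. Of 14 type I interferon-induced genes measured in C1q-low barcodes, 1 was higher and 4 lower in UEIS KI, where 14.7% and 19.1% of all measured genes were, with a median log2 ratio of -0.12, and their sum over the 42 listed genes was 4789 CPM in UEIS KI and 4807 CPM in UEIS LSL. In background barcodes 35 of 42 were lower, where 9.52% of all 15593 measured genes were, with a median of -0.91, and 0 of 42 were higher, where 6.27% were. Over all selected barcodes, C1q-high ones included, 13 of 32 were lower and 1 higher, where 12.3% and 9.71% of 8177 genes were, with a median of -0.36. *Ifitm3* and *Ly6e*, the most abundant of the list, were at 1145 and 855 CPM in UEIS KI and 968 and 798 CPM in UEIS LSL. The interferon-gamma-induced list gave medians of -0.26 (1 higher and 2 lower of 8) in C1q-low barcodes and -1.06 (0 higher and 19 lower of 21) in background barcodes. Its sum over C1q-low barcodes was 1526 CPM in UEIS KI and 2312 CPM in UEIS LSL, a log2 ratio of -0.60 (-0.82 to -0.39). *Cxcl10* alone gave 19 of the 232 summed UMIs in UEIS KI and 250 of 748 in UEIS LSL, 107 of these 250 in 1 barcode. The sum without *Cxcl10* was not computed, so this ratio does not describe the list as a whole. The difference between T cells and background was not tested, the C1q-low lists hold only members deep enough to measure, and the type I median of C1q-low barcodes was -0.46 with at most 8000 UMIs and -0.50 with every barcode weighted alike.

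In C1q-low barcodes 1 of 9 MHC class I genes was higher and 0 lower, with a median of 0.23. There, 1 of 84 cytoplasmic ribosomal protein genes was higher and 1 lower, with a median of 0.04. Of all genes measured in C1q-low barcodes 14.7% were higher and 19.1% lower. In background barcodes 0 of 10 MHC class I genes were higher and 5 lower, with a median of -0.62. There, 0 of 90 ribosomal genes were higher or lower, with a median of -0.060, and of all measured genes 6.27% were higher and 9.52% lower.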

How the data were processed

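CD45+ cells of subcutaneous MC38 tumours were profiled in 1 library per group. The deposited matrices hold raw UMI counts per gene and barcode, from Cell Ranger 8.0.1 per the file headers, while the submitters' processing notes name Cell Ranger 2.1.1 and mm10. The annotation is not given in the sources used here; GENCODE vM21 (GRCm38), which held 52081 of the 55357 identifiers (94.1%), gave the coordinates. Low barcodes may have been removed before deposit. Kept barcodes summed to 99152517 UMIs in UEIS KI and 92622654 UMIs in UEIS LSL.

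The members, markers and 21 gene lists were chosen with earlier results of these data known. Counts were summed per library and set and scaled to CPM. Shares have Clopper-Pearson, sums Poisson and ratios conditional binomial 95% intervals, which cover counting error only, and 0 was set to 3 UMIs for a ratio. With 1 library per group there was no test. A gene needed 20 UMIs over both sets and counts as higher or lower from 1.5-fold. Thinned shares are exact expectations at 500 UMIs. Called doublets stayed in, since the selection rule removes none, and leaving them out was an alternative. Of 438 symbols in lists and markers, 7 matched no single row.

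Named genes were the 4 given markers, the helper cytokines, up to 4 most abundant members of each list, and genes of a ranking. The ranking gave the 12 highest and 12 lowest genes by the interval bound nearest 1, at a level at least 2 times that of background barcodes. It left out predicted, ribosomal, mitochondrial, haemoglobin, sex-linked, receptor segment and selection genes. The same ranking named genes against CD8 and Foxp3 barcodes, with the added condition of at least 1.5-fold in the same direction in each library. There were 19 alternatives, and 1 more was chosen after the data were seen. The code was tested on simulated data. Python 3.11.15, numpy 2.4.6, scipy 1.17.1, pandas 2.3.3 and scanpy 1.11.5 were used.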

Additional observations from a re-analysis of the deposited data

How the results depend on the processing

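With 1 library per group there was no replicate to leave out, and depth limits every value: C1q-low barcodes held medians of 2004 UMIs in UEIS KI and 3308 UMIs in UEIS LSL. All values here are log2 ratios of UEIS KI over UEIS LSL or counts of genes. The cause of each change was not tested unless the alternative's own construction shows it.

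No paired analysis was possible because each group held 1 library. The ratio of the selected share was -1.24 with at least 2 *Trac* UMIs, -0.091 as a share of barcodes with 2 CD3 UMIs and -0.27 with at most 8000 UMIs, and that of the C1q-low share was 0.41 as a share of CD3 barcodes. The *Ifng* ratio stayed below 0 in all 15 alternatives and was -4.46 when 1 UMI of each excluded gene was allowed. That setting admits barcodes with 1 UMI of *Cd8a* or *Cd8b1*. The C1q-low CD8 barcodes of UEIS LSL held 382 *Ifng* UMIs, most of them in 1 barcode, and their part in this value was not tested. The ratio of the share with *Cd40lg* stayed above 0, and that with *Cd4* below 0 except at 0.27 when thinned to 500 UMIs, each within its counting interval.

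Genes at least 1.5-fold higher and lower numbered 349 and 344 with C1q under 3 UMIs, 46 and 2432 per cell, 223 and 1242 scaled to T cell core genes, 1076 and 1449 with a gene minimum of 10 UMIs, 148 and 205 with 50 UMIs, 172 and 334 at 2-fold, and 303 and 332 with at most 8000 UMIs. The lower count was 428 with 2 *Trac* UMIs and 439 among barcodes with *Cd4* or *Cd40lg*. UMIs per cell moved the median of all genes to -0.81 and the core scaling to -0.32, so these counts follow the shift.

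Of the named genes whose counting interval excluded 0, and the medians of lists of at least 6 measured genes whose interval did, these changed direction. With C1q under 3 UMIs *Areg* was -0.54, *Ccr2* -0.29, *Igfbp4* and *Tpm1* 0.21 and *Rrm2* 3.33. Per cell, *Ccr2* was -0.19, *Ctla4* -0.10, *Klf2* -0.081, *Lat* -0.17, *Ms4a4b* -0.070, *Runx3* -0.14, the cytotoxic median -0.15 and the signalling median -0.092. With 2 *Trac* UMIs *Il17a* was -0.36 and *Tpm1* 0.51. With at most 8000 UMIs *Ctla4* was -0.0036, *Il1r2* -0.13 and *Tnfsf8* -0.059. With barcodes weighted alike *Rrm2* was 0.71. Without a C1q limit *Pgk1* was 0.14. Among barcodes with *Cd4* or *Cd40lg*, *Ccr2* was -0.54 and *Rgs1* 0.47. With 1 UMI of excluded genes allowed, *Ms4a4b* was -0.043, *Rrm2* 0.72, *Tm4sf1* 0.14, *Tnfsf8* -0.084 and the cytotoxic median -0.053.

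*Lta* was computed as 0.51 with 2 *Trac* UMIs and 0.92 among barcodes with *Cd4* or *Cd40lg*, but UEIS KI held 0 UMIs, set to 3, so these values show no change of direction. Other values, whose intervals spanned 0 or whose lists were short, also changed sign, among them these: *Tnf*, at 0.55, was -0.74 without a C1q limit and kept its sign in 12 of 15 alternatives. The exhaustion median of 0.11 kept its sign in 6 of 17, the cell cycle median of -0.50 in 13 of 17 (up to 1.22), the helper lineage median of 0.88 in 15 of 16 (down to -0.31) and the type I interferon median of -0.12 in 14 of 17 (-0.93 to 0.32); the glycolysis median of -0.45 was 0.12 without a C1q limit. Mitochondrial limits of 5% and 20%, at least 1000 UMIs, at least 3 CD3 UMIs, called doublets left out and C1q under 0.1% of UMIs left the ratios of the shares, and of *Ifng*, within their counting intervals and the counts of genes within 1.5 times, and turned no direction whose interval excluded 0.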
